A study of Mus musculus with 2 samples.

Results

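The chemokines, cytokines and acute-phase mediators on the array were 91 genes, read by 114 probes. They were chosen by name: the CXC, CC and CX3C chemokines, the colony-stimulating factors *Csf1* to *Csf3*, the interleukins, the TNF superfamily ligands, and *Tnf*, *Lif*, *Osm*, *Tslp*, *Mif*, *Lcn2*, *Saa1*, *Saa2*, *Saa3*, *Ptgs2* and *Hp*. *Cxcl10* was left out by the same rule. The array held 20218 protein-coding genes in all, and the rule itself used no measured value, though it was set with earlier results of these data known.

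Both samples were untreated cultures of 4T1 cells, a mammary carcinoma line from BALB/C mice. Cells were sorted with ALDEFLUOR, a dye substrate that becomes bright in cells with aldehyde dehydrogenase (ALDH) activity, into an ALDH-positive population, labelled as the cancer stem cells, and an ALDH-negative population, labelled as its counterpart. Total RNA of each population was hybridised to 1 Agilent array with 1 dye, so the comparison asks how the mRNA of ALDH-high cells differs from that of ALDH-low cells of the same line. Each population came on a single array of 1 cell line, so no difference has a replicate check and no test was made.

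Chemokines are small secreted proteins that draw leukocytes along a gradient, and cytokines such as the interleukins and the TNF ligands carry signals between immune, stromal and epithelial cells. Many of them are switched on through NF-κB, a transcription factor released by inflammatory signals, and the IL-6 family acts through the shared receptor chain gp130 and STAT3. Acute-phase proteins are made in larger amounts during inflammation, and 4T1 tumours are known for secreting colony-stimulating factors and neutrophil-attracting chemokines that swell the granulocyte count of the host.

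The promoter stretches of a few mediators are shown because their NF-κB sites are a well-known regulatory element of this family. The stretches come from RefSeq windows of GRCm38.p6, read in the direction of the gene, and end 1 base before the annotated start site. Each stretch printed here holds 110 bases of a window that runs from 250 bases before to 50 after the start site, and capitals mark letters that match the κB consensus on either strand.

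*Cxcl1*, chr5:90891135-90891244, plus strand: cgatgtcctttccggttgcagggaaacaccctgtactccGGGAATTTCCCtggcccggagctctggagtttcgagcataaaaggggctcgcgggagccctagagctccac
*Cxcl2*, chr5:90903789-90903898, plus strand: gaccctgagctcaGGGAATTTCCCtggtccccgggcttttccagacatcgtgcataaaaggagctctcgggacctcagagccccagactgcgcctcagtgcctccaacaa
*Cxcl3*, chr5:90785991-90786100, plus strand: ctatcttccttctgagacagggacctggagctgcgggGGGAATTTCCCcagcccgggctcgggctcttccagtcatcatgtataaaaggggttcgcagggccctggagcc
*Il6*, chr5:30013004-30013113, plus strand: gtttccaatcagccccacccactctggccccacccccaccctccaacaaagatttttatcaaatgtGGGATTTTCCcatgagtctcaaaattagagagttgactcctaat
*Lcn2*, chr2:32387740-32387849, minus strand: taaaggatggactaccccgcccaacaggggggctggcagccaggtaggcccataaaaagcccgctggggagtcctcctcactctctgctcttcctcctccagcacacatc

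The 3 neutrophil-attracting chemokines *Cxcl1*, *Cxcl2* and *Cxcl3* carried the same letters, GGGAATTTCC, which began 71, 97 and 73 bases before their start sites. Read on both strands, these 10 letters occurred in 29 of 32851 of these full windows (0.0883%), and *Il16* was the only other mediator with them. The looser κB consensus occurred in 4.51% of all windows. Of the 64 mediators with a window in the table, 10 had it: *Ccl9*, *Ccl20*, *Ccl27a*, *Csf1*, *Cxcl1*, *Cxcl2*, *Cxcl3*, *Il6*, *Il16* and *Il19*. The stretch of *Lcn2* shown above held no such letters. The E-box CACGTG, a palindrome to which the circadian factors CLOCK and BMAL1 bind, was present in 7.15% of all windows and in those of *Cxcl3* and *Ptgs2*. These matches are letters in a window and were not measured as binding.

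Of the 91 mediators, 47 were well above background on at least 1 array, by the scanner software's own flag, against 65.6% of all protein-coding genes of the array. Of these, 41 were above background on both arrays and 6 on the ALDH-positive array only. The array as a whole leaned the same way, with 439 protein-coding genes above background in ALDH-positive cells only and 258 in ALDH-negative cells only. The other 44 were below background on both arrays, with normalized signals between 2.56 and 11.9 in ALDH-negative and between 2.55 and 15.2 in ALDH-positive cells over their probes and the undetected probes of measured genes. Fewer cells with an mRNA and less of that mRNA per cell cannot be told apart in such sorted populations.

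A gene was taken as higher in ALDH-positive cells where its ratio was at least 1.5 and its Z-score at least 2, and as lower where the ratio was at most 0.75 and the Z-score at most -2. The Z-score sets the log2 ratio of a probe against those of probes with similar signal, 250 brighter and 250 dimmer, in units of their SD. By these limits 1 of 47 measured mediators was higher, *Lcn2*, where 1.30% of all measured protein-coding genes were higher. 1 mediator was lower, *Ccl19*, where 1.89% of all measured protein-coding genes were lower. Both shares are close to those of the whole array. By probe, 2 of the 57 measured mediator probes were lower, the brighter *Ccl19* probe and the dimmer *Cxcl11* probe. The brighter *Cxcl11* probe stood for its gene and fell short of both limits. Of the 47, 31 had a log2 ratio above 0 (66.0%), as did 61.4% of all measured protein-coding genes. Among the genes above background on both arrays, the median log2 ratio was 0.058 for the 41 mediators and 0.045 for 12565 protein-coding genes.

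**Figure D1:**
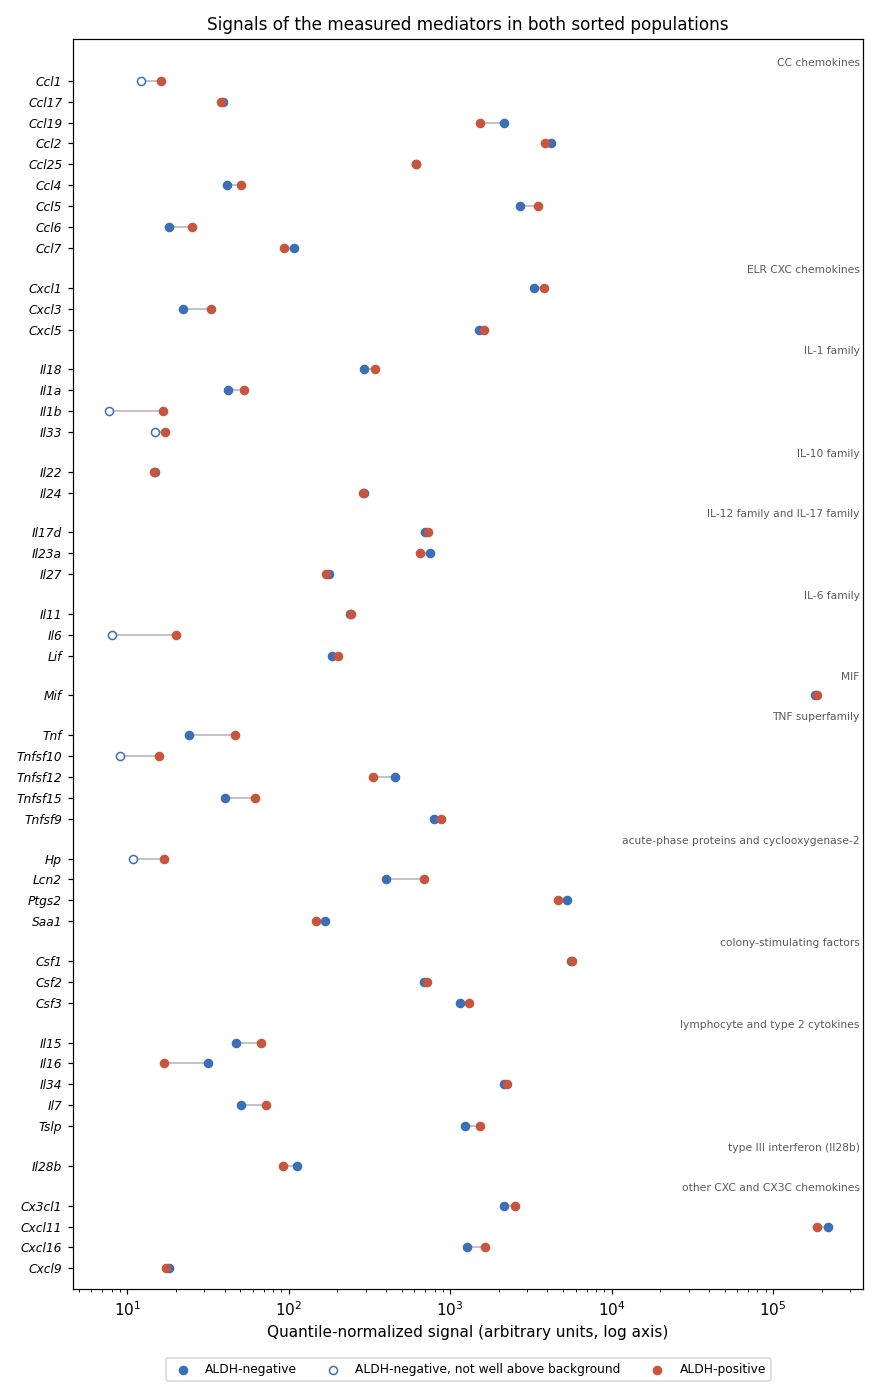
Quantile-normalized signal (horizontal log axis, arbitrary units) of the 47 measured mediators in ALDH-negative (blue) and ALDH-positive (red) 4T1 cells, 1 array each, grouped by role. Open points were not well above background, which concerned 6 genes on the ALDH-negative array, and most pairs of points lie close together, with *Lcn2* moving from 399 to 689. Levels of different genes come from different probes and are not comparable.

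Pairs of signals are given below with ALDH-negative cells first, in the arbitrary units of the normalized array, and log2 ratios are those of ALDH-positive over ALDH-negative cells.

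Acute-phase proteins were represented by 6 mediators that include cyclooxygenase-2, and 4 of them were measured. *Lcn2* encodes lipocalin-2, a secreted protein that withholds iron from bacteria by binding their siderophores. Its signal of 399 in ALDH-negative cells stood against 689 in ALDH-positive cells, a ratio of 1.73 with a log2 ratio of 0.79 (scanner error 0.20) and a Z-score of 3.43. It was the only mediator past the limits for higher expression. Its probe, at chr2:32240199-32240258 of NCBI37, lay in the last eighth of the columns of the array. Of measured probes with 1 spot, 3.77% were higher in this outer area, which takes in the last eighth of rows as well, and 0.707% elsewhere. The share that was lower was 4.35% there and 2.43% elsewhere. That area also held the single-spot probes of *Ccl6*, *Cxcl3*, *Cxcl5*, *Hp*, *Il28b*, *Lif*, *Saa1*, *Tnfsf9* and *Tnfsf10* that stood for these genes. With the probes of that area left out 0 mediators were higher. The part of that location in the *Lcn2* result was not tested. Among 606 probes of that area within 0.5 of its mean log2 signal, that of *Lcn2* included, the median log2 ratio was 0.028. Of these, 2 had a log2 ratio at least as high as that of *Lcn2*, its own probe counted among them. *Lcn2* was called because it stood out among probes of similar signal, so a low count here follows largely from that choice. The signal of *Slc22a17*, the cell-surface receptor gene for lipocalin-2, named after its values were seen, was 55.7 and 65.3. Its log2 ratio was 0.23 (error 0.23).

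None of the other acute-phase genes passed the limits. *Saa1*, a serum amyloid A protein that rides on lipoproteins, gave 168 and 147, with a log2 ratio of -0.19 (error 0.21). Its near copy *Saa2* and the related *Saa3* were below background on both arrays, and the signal of the *Saa1* probe cannot be assigned with certainty between such copies. *Hp*, which encodes the haemoglobin-binding haptoglobin, was above background in ALDH-positive cells only, at 16.8. Its bound was 1.28-fold higher there, as set against 13.1, the lowest signal of any probe well above background in ALDH-negative cells. Such a bound leaves out the scanner error, which was 0.53 for the log2 ratio of *Hp*, and its Z-score was 0.61.

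*Ptgs2*, which encodes cyclooxygenase-2, the inducible enzyme of prostaglandin synthesis, was printed in 10 spots on each array. Its spots lay between 5005 and 5725 in ALDH-negative and between 4512 and 4873 in ALDH-positive cells, so the arrays did not overlap. All 10 spots had a lower signal in ALDH-positive cells, with a mean log2 ratio of -0.19 (SD 0.053 over spots). That is a ratio of 0.878, short of the limit for lower expression and within the scanner error of 0.20, and spots of 1 array repeat the same RNA.

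Of 20 CC chemokines 9 were measured, and 4 had a log2 ratio above 0 and 5 below. *Ccl19*, which guides dendritic cells and naive T cells through the receptor CCR7, was brighter in ALDH-negative cells, at 2169, than in ALDH-positive cells, at 1532, for a log2 ratio of -0.50 (error 0.20) with a Z-score of -2.36 and a ratio of 0.706. A second *Ccl19* probe, in the last eighth of the array, gave 49.2 and 30.7, a log2 ratio of -0.68 (error 0.26) with a Z-score of -1.08, and another was below background on both arrays. Both detected probes gave the lower signal in ALDH-positive cells, and only the brighter passed the limits. With the median over its detected probes, with a ratio limit of 1.5 in both directions or with a Z-score over all probes, 0 mediators were lower.

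The brighter *Ccl19* probe lies at chr4:42248526-42248585 of NCBI37 according to the array file. In the RefSeq windows of GRCm38.p6, all 60 of its bases matched the *Ccl19* window between 131 and 72 bases before the annotated start site, outside the annotated transcript that starts there. The same 60 bases also matched, on the same strand, the window of *Gm12407*, from 31 bases before to 29 bases after its start. The gene behind this signal is therefore uncertain. The dimmer probe matched only the *Ccl19* window, from 27 bases before to 33 after the start. *Ccr7*, named after its values were seen, had signals of 12.2 and 26.6 and was above background in ALDH-positive cells only. Its bound was 2.03-fold higher there, without the scanner error of its log2 ratio, 0.45. The Z-score of 1.13 was short of the limit.

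Among the other CC chemokines, *Ccl5* and *Ccl2* differed in direction. *Ccl5*, a chemoattractant of T cells and eosinophils, showed 2706 and 3507, with a log2 ratio of 0.37 (error 0.20). Its Z-score of 2.05 passed the limit and its ratio of 1.30 did not. *Ccl2* and *Ccl7*, which call monocytes through CCR2, were both below 0. For *Ccl2* all 10 spots were lower in ALDH-positive cells, with a median of 4219 and 3892 and a mean log2 ratio of -0.12 (SD 0.040 over spots), though the highest spot of the one array, 4042, exceeded the lowest of the other, 3958, and the ratio was within the scanner error of 0.20. *Ccl7* read 108 and 93.3, a log2 ratio of -0.21 (error 0.21).

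The remaining measured CC chemokines were dim or did not differ beyond the scanner error. *Ccl4*, a macrophage inflammatory protein, had 41.4 and 50.6, a log2 ratio of 0.29 (error 0.26), and *Ccl6* had 18.2 and 25.1, a log2 ratio of 0.46 (error 0.38). *Ccl17*, a ligand of CCR4, had 39.2 and 38.1. *Ccl25*, the thymic and gut chemokine, had 615 and 614 on its brightest probe, and its other detected probes had log2 ratios of 0.25 and 0.30, of about the size of their errors. *Ccl1* had 12.2 and 16.2 and was above background in ALDH-positive cells only, but its difference was within the scanner error. *Ccl11*, *Ccl12*, *Ccl20*, *Ccl22*, *Ccl24*, *Ccl26*, *Ccl27a*, *Ccl28*, *Ccl3*, *Ccl8* and *Ccl9* were below background on both arrays.

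The ELR CXC chemokines attract neutrophils through CXCR2, and 3 of 5 were measured, all with a log2 ratio above 0 and none past the limits. *Cxcl1* gave 3290 and 3810, for a log2 ratio of 0.21 (error 0.20). *Cxcl5* had 1498 and 1623, a log2 ratio of 0.12 (error 0.20), within the scanner error. *Cxcl3* had 22.0 and 33.0, a log2 ratio of 0.59 (error 0.33), with a Z-score of 0.68 among similarly dim probes. With another background correction or with none that log2 ratio was 0.27 and 0.16. *Cxcl2*, whose promoter carries the same κB letters as those of *Cxcl1* and *Cxcl3*, was below background on both arrays, as was *Cxcl15*. None of the mediators that share these letters passed the limits, and the part of the letters in their signals was not tested.

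The other CXC and CX3C chemokines were 8 genes, of which 4 were measured. *Cxcl16* and *Cx3cl1*, both made as membrane proteins that are shed as chemokines, had log2 ratios above 0. *Cxcl16* showed 1273 and 1650, with a log2 ratio of 0.37 (error 0.20), a Z-score of 1.90 and a ratio of 1.30. *Cx3cl1*, or fractalkine, had 2140 and 2513, a log2 ratio of 0.23 (error 0.20). *Cxcl9*, an interferon-induced ligand of CXCR3, had 18.2 and 17.3, a log2 ratio of -0.076 (error 0.37).

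*Cxcl11*, another interferon-induced ligand of CXCR3, was read by 2 probes that disagreed on the call. The brighter gave 217417 and 187664, a log2 ratio of -0.21 (error 0.20) with a Z-score of -1.98, just short of the limit. The dimmer gave 3957 and 2775, a log2 ratio of -0.51 (error 0.20) with a Z-score of -2.80, past both limits for lower expression. The letters of the brighter probe recurred elsewhere: 22 of the promoter windows of other genes held at least 20 of its letters in a row, on either strand, while 54 of the 57 measured mediator probes shared 20 letters with no window of another gene. Bases 20 to 49 of this probe are shown with the 20 letters found in 15 such windows in capitals.

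*Cxcl11* brighter probe: agccaGGGCTACACAGAGAAACCCTatctt

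The level read by that probe is therefore uncertain as one of *Cxcl11*. The dimmer probe shared 20 letters with no other window.

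All 3 colony-stimulating factors were measured on both arrays, and none passed the limits. *Csf1*, the macrophage growth factor, had 10 spots with medians of 5644 on each array and a mean log2 ratio of 0.012 (SD 0.031 over spots). Its log2 ratio turned to -0.020 when probes with a spot in the outer area were left out, which left another of its 3 measured probes. *Csf2*, which supports granulocytes and macrophages, had spot medians of 683 and 711, a mean log2 ratio of 0.057 (SD 0.067 over spots). *Csf3*, the granulocyte growth factor, read 1143 and 1300, a log2 ratio of 0.19 (error 0.20), within the scanner error. *Il34*, a second ligand of the *Csf1* receptor, had 2149 and 2242, a log2 ratio of 0.061 (error 0.20).

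**Figure D2:**
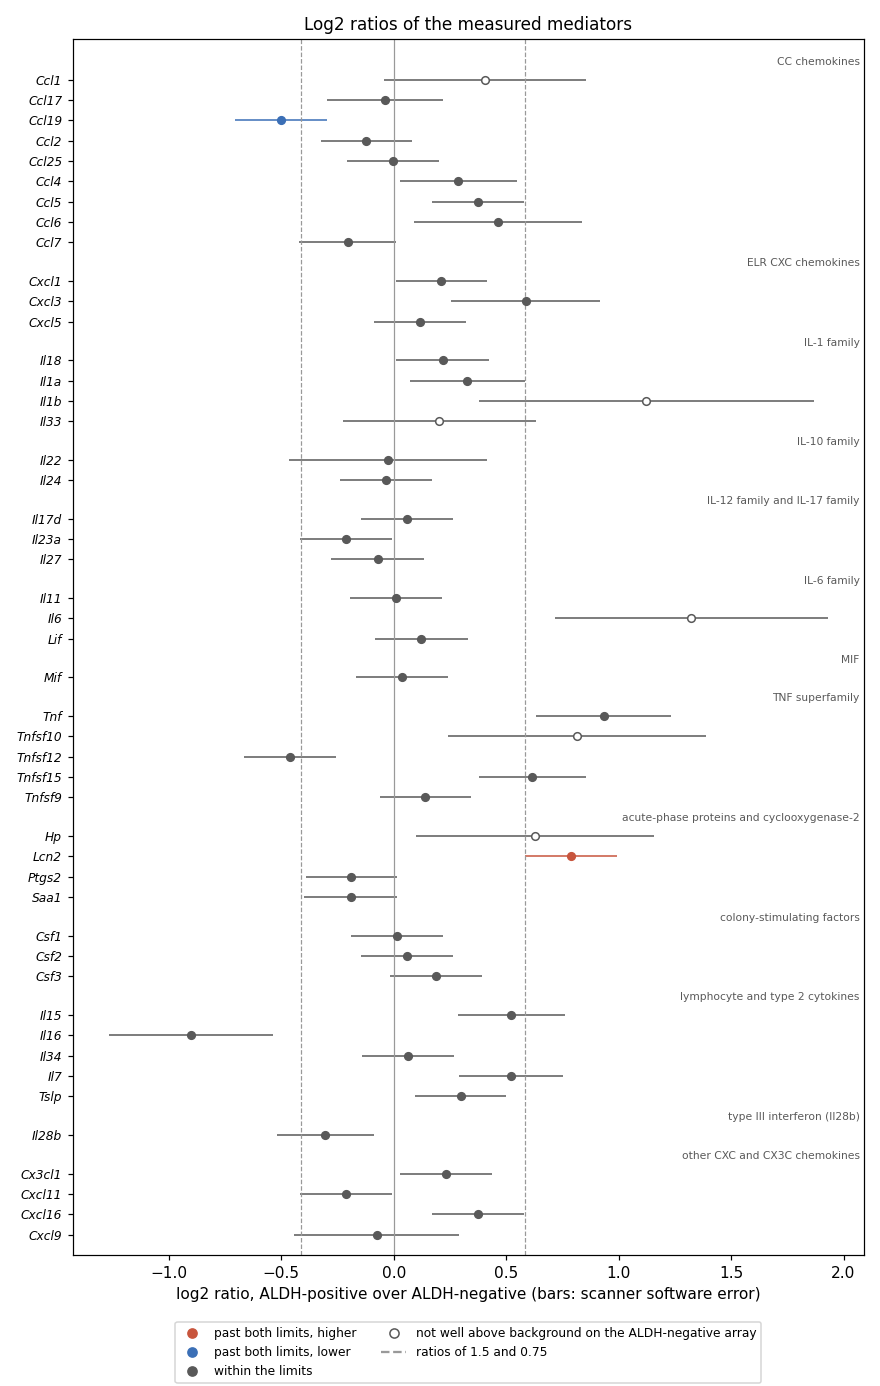
Log2 ratio of both signals, ALDH-positive over ALDH-negative, on the horizontal axis for the 47 measured mediators, with bars for the error of both signals as the scanner software gives it and dashed lines at ratios of 1.5 and 0.75. *Lcn2* (red) and *Ccl19* (blue) were past both the ratio and the Z-score limit, and the open points, 6 genes below background in ALDH-negative cells, have wide bars.

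The IL-1 family, whose members start and sustain inflammation, had all 4 listed genes above background on at least 1 array. *Il1a* gave 42.1 and 52.8, for a log2 ratio of 0.33 (error 0.25). *Il18* had 293 and 341, a log2 ratio of 0.22 (error 0.21). Both lay just outside the scanner error, with Z-scores of 0.72 and 0.84.

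*Il1b* and *Il33* were above background in ALDH-positive cells only. *Il1b*, the secreted pyrogenic form, was printed in 10 spots, and 0 of these were above background in ALDH-negative cells while 6 were in ALDH-positive cells. Its spots lay between 3.20 and 14.2 in ALDH-negative and between 12.8 and 21.1 in ALDH-positive cells, and all 10 were brighter in the latter. The bound was 1.27-fold higher in ALDH-positive cells, without the scanner error of the log2 ratio, 0.74, and the Z-score was 0.90. The spots of both arrays overlapped at their edges. *Il33*, an alarmin held in the nucleus, had 14.8 and 17.1, a difference within the scanner error.

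The IL-6 family, which signals through gp130, had 3 of 4 genes measured. *Il6* was printed in 2 spots, with 7.21 and 9.02 in ALDH-negative and 17.8 and 22.9 in ALDH-positive cells. The spots did not overlap, and the probe was above background in ALDH-positive cells only. Its bound was 1.53-fold higher there, without the scanner error of the log2 ratio, 0.61, and its Z-score was 1.18. *Lif*, which keeps stem cells undifferentiated in culture, had 186 and 203, a log2 ratio of 0.12 (error 0.21). *Il11* had 241 and 243, a log2 ratio of 0.0098 (error 0.21). *Osm* was below background on both arrays.

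The TNF superfamily had 5 of 11 ligands measured, 4 with a log2 ratio above 0. *Tnf*, the founding ligand of the family, had 10 spots between 17.7 and 33.2 in ALDH-negative and between 42.2 and 54.4 in ALDH-positive cells. No spot of one array overlapped those of the other, and each of the 10 was above background on both arrays. The mean log2 ratio was 0.93 (SD 0.30 over spots), 0.80 over the 2 spots of the outer area and 0.96 over the other 8. Its ratio of 1.91 passed the limit and its Z-score of 1.36 did not, being set against probes as dim as this one. With another background correction or with none its log2 ratio was 0.33 and 0.30.

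The other TNF ligands went both ways. *Tnfsf12*, or TWEAK, showed 456 and 331, with a log2 ratio of -0.46 (error 0.20), and its ratio of 0.725 passed the limit for lower expression while its Z-score of -1.93 fell just short. *Tnfsf15*, or TL1A, had 40.4 and 61.8, a log2 ratio of 0.62 (error 0.24) with a Z-score of 1.11. With another background correction or with none that log2 ratio was 0.29 and 0.27. *Tnfsf9*, the ligand of the costimulatory receptor 4-1BB of T cells, had 796 and 878, a log2 ratio of 0.14 (error 0.20). *Tnfsf10*, the death ligand TRAIL, was above background in ALDH-positive cells only. Its bound was 1.20-fold higher there, without the scanner error of its log2 ratio, 0.57, and its Z-score was 0.67. *Tnfsf11*, *Tnfsf13b*, *Tnfsf14*, *Tnfsf18*, *Tnfsf4* and *Tnfsf8* were below background on both arrays.

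Each of the genes printed in several spots gives a view of the scatter within an array. Among all probes with 10 spots above background, the median SD within an array was 0.058 (log2) on the array of ALDH-negative cells and 0.049 on the other. The spot SD of *Tnf*, at 0.29 and 0.12, was larger, and that of *Ptgs2*, at 0.072 and 0.037, was near that median. These values cover the printing and hybridisation of 1 RNA and not the spread between cultures.

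Of 13 cytokines of lymphocytes and of type 2 immunity 5 were measured. *Tslp*, an epithelial cytokine that primes dendritic cells, read 1237 and 1519, a log2 ratio of 0.30 (error 0.20) with a Z-score of 1.56. *Il15* and *Il7*, which sustain T cells and natural killer cells, had like signals, with 47.2 and 67.8 for *Il15* and 50.8 and 72.7 for *Il7*. Their log2 ratios were both 0.52 (errors 0.24 and 0.23), and with another background correction they were 0.28 and 0.27. Both stayed short of a ratio of 1.5, with Z-scores of 1.15 and 1.18.

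*Il16*, a chemoattractant of CD4+ cells that is cut from a longer precursor, had the lowest log2 ratio of the 41 mediators above background on both arrays. It gave 31.6 and 16.9, hence a log2 ratio of -0.90 (error 0.36), and its Z-score was -0.97. With another background correction the log2 ratio was -0.21. Its promoter carries the same κB letters as that of *Cxcl1*, and the part of these letters in either signal was not tested. *Il2*, *Il3*, *Il4*, *Il5*, *Il9*, *Il13*, *Il21* and *Il31*, most of them products of activated lymphocytes, were below background on both arrays.

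The IL-12, IL-17 and IL-10 families were mostly below background. Of 10 genes of the IL-12 and IL-17 families, 3 were measured. *Il23a*, the p19 chain of IL-23, gave 750 and 648, for a log2 ratio of -0.21 (error 0.20), and its partner chain *Il12b* was below background on both arrays. *Il27*, the p28 chain of IL-27, had 178 and 169, and *Il17d* had 703 and 731, both within the scanner error. Of 5 genes of the IL-10 family, *Il24* had 294 and 287 and *Il22* had 14.9 and 14.6, again within the error, and *Il10*, *Il19* and *Il20* were below background.

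*Il28b*, a type III interferon now named *Ifnl3*, showed 113 and 91.6, with a log2 ratio of -0.30 (error 0.22). *Mif*, a constitutively expressed cytokine with tautomerase activity, was read by 4 probes with log2 ratios between 0.021 and 0.10, each within the scanner error of 0.20. Its brightest probe gave 181906 and 186762.

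**Figure D3:**
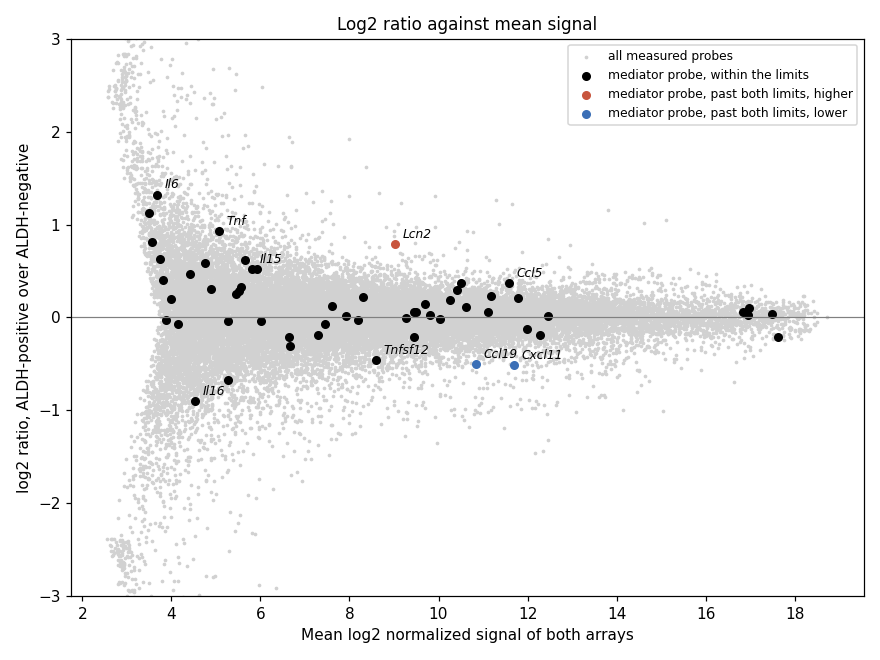
Log2 ratio of ALDH-positive over ALDH-negative cells (vertical axis) against the mean log2 normalized signal of both arrays (horizontal axis) for all 28585 measured probes (grey) and the 57 probes of mediators. The axis is limited to log2 ratios between -3 and 3, which leaves 276 probes out of view, and the scatter widens towards dim probes, where *Tnf*, *Il6* and *Il16* lie.

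The mediators farthest from 0 were mostly dim. Of 12 mediators above background on both arrays with a mean signal under 100, 6 had a log2 ratio beyond 0.5 in either direction, and the median was 0.40. Of 2261 protein-coding genes as dim, 23.2% were beyond 0.5, and the median was 0.055. Of 29 mediators with a mean signal of 100 or more, 2 were beyond 0.5, *Lcn2* and *Ccl19*, and the median was 0.038, against 2.95% and 0.044 for 10304 protein-coding genes. The size of these differences changed with the background correction. Normexp was run with an offset of 50, which by itself pulls the log2 ratios of dim signals towards 0. With it, 0 of the same 12 mediators were beyond 0.5 and their median was 0.12, against 1.77% and 0.022 for the 2261 protein-coding genes. The part of the correction in the differences of the dim genes was not tested. These medians describe 2 arrays and have no test.

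The receptors that answer these ligands were looked at as a list of 44 genes, of which 29 were measured, 1 higher and 1 lower, where 1.30% of all measured protein-coding genes were higher and 1.89% lower. The counts of the lists that follow stand beside the same shares. *Il1rap*, the accessory chain of the IL-1 and IL-33 receptors, read 25.1 and 50.8, a log2 ratio of 1.02 (error 0.30) with a Z-score of 2.10, and its probe lay in the last eighth of the array. *Il1r1*, the chain that binds IL-1, had 186 and 228, a log2 ratio of 0.30 (error 0.21). *Csf3r*, the receptor of granulocyte colony-stimulating factor, had 40613 and 29746, a log2 ratio of -0.45 (error 0.20) with a Z-score of -2.63. Letters of the receptor probes, unlike those of the mediator probes, were not compared with windows of other genes. *Csf1r*, the receptor of *Csf1* and *Il34*, had 971 and 769, a log2 ratio of -0.34 (error 0.20), short of the limits.

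Receptor chains of *Il15* were measured too, while *Il7r*, the specific chain of the IL-7 receptor, was below background on both arrays. *Il15ra*, which presents IL-15 to other cells, had 3997 and 4891 on its brighter probe, a log2 ratio of 0.29 (error 0.20), whereas its dimmer probe had -0.13 (error 0.21). *Il2rg*, the common gamma chain, had 23.0 and 34.1, a log2 ratio of 0.57 (error 0.31), and *Il4ra*, the chain that binds IL-4, had 35.4 and 50.4, a log2 ratio of 0.51 (error 0.25). None of these passed the limits. *Cxcr1*, *Cxcr2* and *Ccr2*, receptors of the neutrophil- and monocyte-attracting chemokines, were below background on both arrays, as were *Cxcr6* and *Cx3cr1*, receptors of *Cxcl16* and *Cx3cl1*.

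The genes of NF-κB and STAT3 signalling, with decoys and inhibitors of cytokines, were 25, of which 24 were measured and 0 passed the limits in either direction. Their log2 ratios lay between -0.27 and 0.31, the latter for *Il18bp*, the soluble inhibitor of IL-18, with a median of 0.083. *Il1rn*, the IL-1 receptor antagonist, was below background on both arrays.

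Markers of other cells were set beside these values because leukocytes make many of the same mediators. Of 14 leukocyte markers 6 were measured, 1 lower and none higher, with signals that summed to 12329 on the ALDH-negative array and 8352 on the ALDH-positive one. The lower one was *Itgam*, an integrin chain of myeloid cells, with 7301 and 3795 on its brightest probe, a log2 ratio of -0.94 (error 0.20), while its dimmer probes had 0.38 (error 0.34) and -0.67 (error 0.42), the last above background in ALDH-negative cells only. Without *Itgam* the signals of the other 5 measured markers summed to 5029 and 4557. *Cd68*, a macrophage marker named after its values were seen, lay the other way with 762 and 1032, and its Z-score of 2.34 passed the limit while its ratio of 1.36 did not. Named likewise after their values were seen, *Cd3e* had 917 and 664, *Cd4* 1846 and 1630, and *Nkg7* 532 and 461. All of these were above background on both arrays and none passed both limits. *Ptprc*, *Cd8a*, *Ms4a1*, *Itgax*, *Adgre1*, *Ly6g* and *Lyz2* were below background on both arrays. The sums above add levels of different probes, which are not comparable, and do not measure leukocyte content. Letters of the marker probes were not compared with windows of other genes. The part of these markers in the lower signals of *Ccl19* and *Csf3r* was not tested.

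Of 5 endothelial markers 2 were measured and *Kdr*, the VEGF receptor, was lower, and of 6 fibroblast markers 3 were measured with none past the limits. *Pdgfrb*, *Dcn*, *Lum*, *Cdh5*, *Tek* and *Emcn* were below background on both arrays. All 6 markers of the carcinoma epithelium were measured, each with a log2 ratio above 0. The same sign was found in 61.4% of all measured protein-coding genes. *Krt14*, a basal keratin, was higher, at 695 and 1366, a log2 ratio of 0.98 (error 0.20). The others are named after their values were seen. *Epcam* and *Krt19* had log2 ratios of 0.40 and 0.54, short of the ratio limit. *Krt8*, *Krt18* and *Cdh1* were within the scanner error of 0.20.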

How the data were processed

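Total RNA of 1 ALDH-negative and 1 ALDH-positive population was labelled with Cy3 and read on Agilent 8 x 60K mouse arrays. The authors extracted spot intensities with Agilent Feature Extraction (9.5.1.1 per the labels and 10.7.1.1 per the file headers), and deposited background-subtracted intensity values with their errors and flags, and a table of quantile-normalized intensity on a linear scale.

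From the processed signals, control spots and population outliers (135 and 116 spots) were left out, signals under 1 were set to 1, log2 values of repeated spots were averaged, and 55681 probes were quantile-normalized over both arrays. The 75th percentile of the processed signal per probe was 234 and 322, and no spot was saturated. The measured probe with the highest mean log2 signal stood for a gene. The Z-score used 250 probes on either side. The limits for higher genes were a Z-score of at least 2 with a ratio of at least 1.5, and those for lower genes at most -2 with at most 0.75. The error of a log2 ratio combined, in quadrature, the errors that the scanner software gave for each signal. A gene below background on 1 array was given as a bound against the higher of its own signal there and the lowest signal among probes well above background. The bounds do not include the scanner error.

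The members and lists were chosen with earlier results of these data known. The text names measured mediators, called genes of the receptor, signalling and marker lists, and up to 6 others of the receptor and signalling lists farthest from 0 and above background on both arrays, while genes outside this rule are marked as named after their values were seen. Symbols were matched to a RefSeq table of GRCm38.p6, in which 90 of 91 mediators had a current protein-coding symbol, *Cxcl11* being the exception. Promoter windows, 250 bases before to 50 after the start, came from RefSeq on the same build, and probes are placed by the array files on NCBI37. Alternatives were a 75th percentile shift, normexp with an offset of 50, no background correction, the deposited table, probes above background on both arrays, the median over probes, other windows and limits for the Z-score, and leaving out the outer area. No paired analysis was possible because each population had a single array. One listed marker is not reported here. Processing was tested on simulated data. Python 3.11.15, numpy 2.4.6, pandas 2.3.3, R 4.3.3 and limma 3.58.1 were used.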

Additional observations from a re-analysis of the deposited data

How the results depend on the processing

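*Lcn2* was the 1 higher mediator in the alternatives that kept its probe, except with a Z-score over all probes, where *Il6* took its place as the 1 higher gene although it was below background in ALDH-negative cells. Leaving out the probes with a spot in the outer area of the array left 0 higher mediators of 32 measured, since the *Lcn2* probe was among those left out, and leaving out only the spots there, an alternative chosen after seeing the data, also left 0, of 37. The count of lower mediators was 2 without background correction, *Ccl19* and *Tnfsf12*. It was 0 with the median over the measured probes of a gene, 0 when the Z-score took in every probe and 0 with a ratio limit of 1.5 in both directions, and 1, *Ccl19*, in the others. No alternative let the dimmer *Cxcl11* probe, past both limits for lower expression in the main setting, stand alone for its gene. The log2 ratio of *Lcn2* ranged from 0.71 to 0.83 and that of *Ccl19* from -0.59 to -0.42. The median log2 ratio of the measured mediators, 0.12 where that of all measured protein-coding genes was 0.048, ranged from 0.047 with normexp to 0.15 with the 75th percentile shift. Of 308 recomputed log2 ratios of the 41 mediators above background on both arrays, 296 moved by less than the scanner error and 302 kept their sign. The 6 that did not belonged to *Ccl25*, *Csf1*, *Il11*, *Il22* and *Mif*, all near 0. The 12 that moved further belonged to *Ccl25*, *Cxcl3*, *Il7*, *Il15*, *Il16*, *Tnf* and *Tnfsf15*, and 11 of them came from the alternatives in background correction, under which the log2 ratios of dim genes shrank. Many of the 308 could not move by design. Keeping only probes above background on both arrays repeats the main log2 ratio of all 41. The median over probes and leaving out outer-area probes repeat it for most genes. The deposited table, also quantile-normalized, gave nearly the same values. The 296 and 302 therefore overstate how far these log2 ratios were put to a test. With 1 array per population, no value shows the spread between cultures, and differences of dim probes within their errors were not detectable.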
